A study of Mus musculus with 8 samples.

Results

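The thermogenic and beige fat genes examined here are 10 genes of brown and beige adipocytes, Ucp1, Cidea, Ppargc1a, Ppargc1b, Dio2, Cox7a1, Cox8b, Elovl3, Prdm16 and Ckb, chosen by name and found by Ensembl identifier among the 34866 genes of the deposited table. All 10 were in the table. RNA came from epididymal white adipose tissue, the fat pad beside the epididymis, of male mice; ages are not given in the sources used here. The 4 control libraries came from Aromatase flox/flox animals, whose 2 Cyp19a1 alleles (the gene for aromatase) carry loxP sites, and the 4 knockout libraries from aP2-Cre;Aromatase flox/flox animals, which share the floxed alleles and also carry Cre recombinase under the promoter of Fabp4, a lipid carrier gene of adipocytes. A group with the aP2-Cre transgene and no floxed allele was not analysed here, so the transgene and the deletion cannot be told apart. The labels do not say whether each library is a separate animal, so p-values measure the spread between these libraries.

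Brown and beige adipocytes burn fuel to make heat. Ucp1 lets protons back across the inner mitochondrial membrane without ATP synthesis, Prdm16 and the coactivators Ppargc1a and Ppargc1b set the gene programme and the number of mitochondria, and noradrenaline, acting through beta-adrenergic receptors and cyclic AMP, switches the programme on. Epididymal fat is known as a white depot that turns beige only weakly, whereas inguinal fat does so readily in the cold. Aromatase makes oestrogens from androgens, and the study looked in fat for targets of it that bear on phosphorus metabolism.

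Depth decided which of the 10 genes could be compared. The libraries held 1538427 to 3053565 estimated counts, and a count of 0 allows a level of up to 0.982 to 1.95 CPM, depending on the library. CPM is the count per 1000000 counts of the library, with the library total adjusted by TMM factors, which correct for composition. The limits for a count of 0 and the pooled levels with their Poisson intervals use library totals without that adjustment. The limit that a count of 0 allows covers counting error only, because amplified reads are not independent molecules. A gene was called detected where more than 3 counts were found in at least 4 of the 8 libraries. By that rule 7 genes were detected (Ckb, Ppargc1b, Ppargc1a, Prdm16, Cidea, Cox8b and Cox7a1), and Ucp1, Elovl3 and Dio2 were not. The low-count filter of the test kept 5 genes, Ckb, Ppargc1b, Ppargc1a, Prdm16 and Cidea. Cyp19a1 itself had 0 to 5.02 counts in a library, which is too few to check the deletion. Adipocyte genes marked the tissue as labelled: the summed level of 14 adipocyte markers was 69290.2 to 88426.3 in control libraries and 59082.3 to 84680.1 CPM in knockout libraries, led by Car3 and Fabp4. The 13 macrophage markers summed to 985 to 1141 in control libraries and 1475.5 to 1904.5 CPM in knockout libraries, with 11 of 13 higher on average in the knockout and none at 0 throughout. The sum was led by Lyz2, which averaged 375 CPM in control and 676 CPM in knockout libraries, and C1qa, at 120 and 133 CPM. In edgeR 3 of the 13, Lyz2, Ctss and Cd68, had an adjusted p under 0.05. Cd163 and Fcgr1 were lower on average in the knockout. Mitochondrially encoded genes took 10.7% to 12.4% of counts in control libraries and 8.70% to 10.1% in knockout libraries. The part of both shifts in the values below was not tested, and in whole tissue fewer cells of a type and less RNA per cell cannot be told apart.

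**Figure D1:**
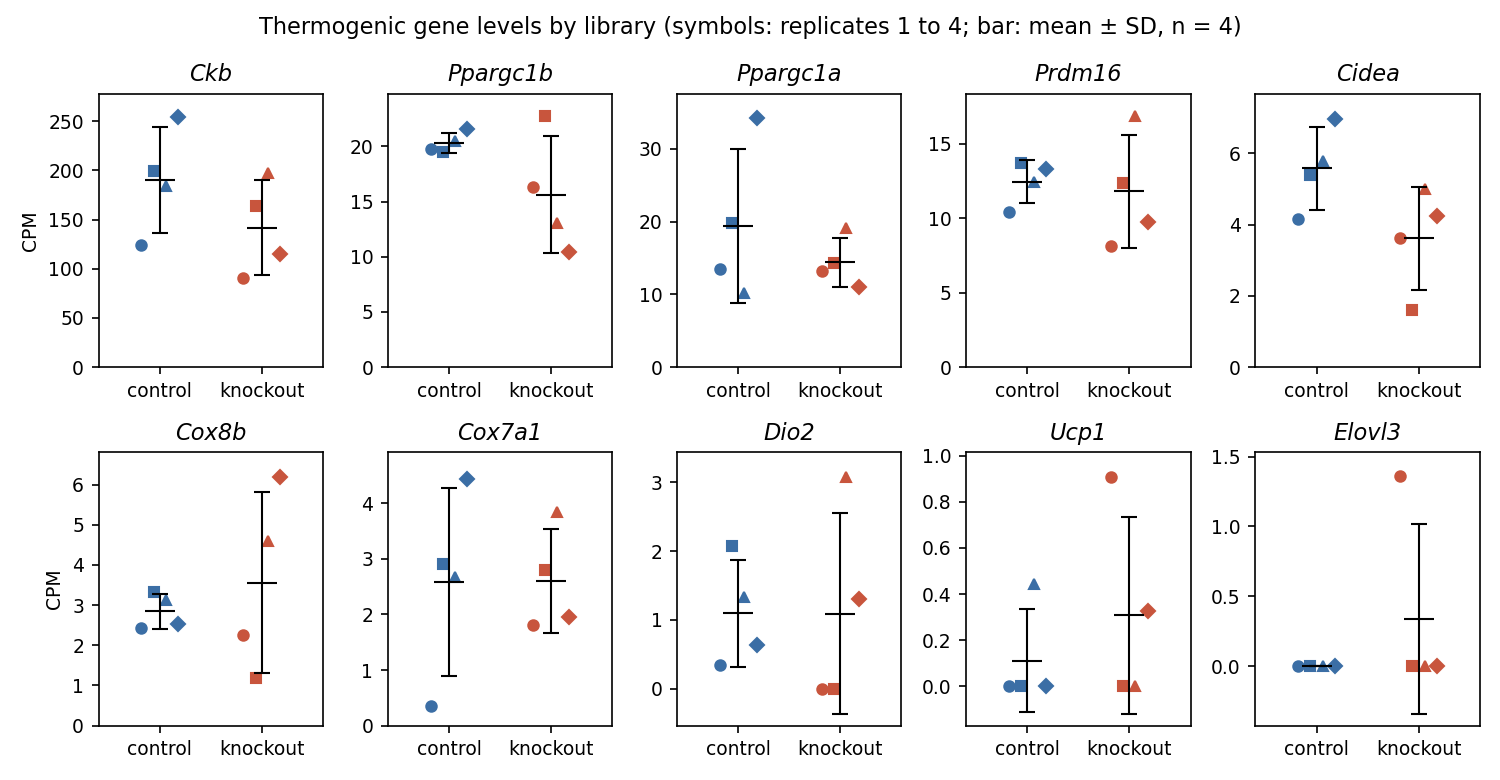
Level of each of the 10 genes in CPM (vertical axes, a separate scale for each gene), with the 4 control libraries in blue and the 4 knockout libraries in red. Circles, squares, triangles and diamonds are replicates 1 to 4, and bars give the mean and SD of 4 libraries. The groups overlap in all 10 genes, and Ucp1 and Elovl3 sit at 0 in most libraries.

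None of the 10 genes had an adjusted p under 0.05. Of the 5 that could be fitted, 0 had an adjusted p under 0.05 in edgeR's quasi-likelihood test, against a background of 0.168% of the 12480 genes tested (0.12% higher and 0.0481% lower in the knockout), and 0 had an unadjusted p under 0.05, against 6.39% of all genes. DESeq2 and limma-voom also called 0 of them. All 5 log2 fold changes lay below 0, with a median of -0.40, while 50.3% of all tested genes lay below 0 and their median was -0.0015; the 5 genes under the filter are not part of that median. Control and knockout libraries overlapped in each of the 10 genes. Among all tested genes only 4.17% had no overlap, so overlap does not set these genes apart. The 5 genes under the filter are outside that share.

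The effectors that define heat-making fat were at the limit of detection. Ucp1 (ENSMUSG00000031710.4, GRCm38 chromosome 8, 83290352 to 83298452) had 0, 0, 1 and 0 counts in control replicates 1 to 4, against 2, 0, 0 and 1 in the knockout replicates. Both genotypes therefore held Ucp1 at 0 in 2 or more libraries and at no more than 2 counts in any. Pooled over the 8 libraries this was 4 of 19536435 counts, or 0.205 CPM, with a 95% exact Poisson interval of 0.0558 to 0.524 CPM that covers counting error only. Elovl3 (ENSMUSG00000038754.4, chromosome 19, 46131897 to 46135694), an elongase of very long fatty acids that rises in cold-exposed brown fat, had 0 counts in 7 libraries and 3 in knockout replicate 1. In the 4 control libraries together its count of 0 allows up to 0.320 CPM by the limit of 3 counts, and the exact 95% Poisson upper bound is 0.393 CPM. Dio2 (ENSMUSG00000007682.6, chromosome 12, 90724552 to 90738438), the deiodinase that makes active thyroid hormone inside brown adipocytes, had 1, 5, 3 and 1 counts in control libraries and 0, 0, 8 and 4 in knockout libraries. Its pooled level was 1.13 CPM, with an exact Poisson interval of 0.706 to 1.70 CPM. Dio2 was highest in knockout replicate 3 and at 0 in knockout replicates 1 and 2, so the knockout libraries alone spanned the whole control range. Two-sided exact permutation tests on CPM gave p = 0.714 for Ucp1, 1 for Dio2 and 1 for Elovl3 (4 libraries against 4, smallest possible p 0.0286; 1 for each after Benjamini-Hochberg adjustment over the 5 genes so tested). A difference in these 3 genes was not detectable at this depth.

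The start regions of 3 genes that cyclic AMP is known to induce, Ucp1, Dio2 and Ppargc1a, are shown with that of Ckb, the member with the most counts, because the first 2 gave almost no reads here and the other 2 were detected in every library. Each run is the RefSeq promoter window of GRCm38.p6, 250 bases before to 50 bases after the annotated start, 5′ to 3′ on the gene's strand: chr8:83290098-83290397 (+) for Ucp1, chr12:90738989-90739288 (-) for Dio2, chr5:51567676-51567975 (-) for Ppargc1a and chr12:111672289-111672588 (-) for Ckb. Capitals mark matches, on either strand, to the cyclic AMP response element TGACGTCA, its core TGACG or the TATA box TATAAA.
Ucp1: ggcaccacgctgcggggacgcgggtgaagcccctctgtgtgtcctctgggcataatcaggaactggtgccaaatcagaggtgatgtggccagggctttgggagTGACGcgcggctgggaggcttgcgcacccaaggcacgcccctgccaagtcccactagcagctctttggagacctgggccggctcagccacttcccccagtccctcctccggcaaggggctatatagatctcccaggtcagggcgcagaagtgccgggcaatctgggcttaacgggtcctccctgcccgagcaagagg
Dio2: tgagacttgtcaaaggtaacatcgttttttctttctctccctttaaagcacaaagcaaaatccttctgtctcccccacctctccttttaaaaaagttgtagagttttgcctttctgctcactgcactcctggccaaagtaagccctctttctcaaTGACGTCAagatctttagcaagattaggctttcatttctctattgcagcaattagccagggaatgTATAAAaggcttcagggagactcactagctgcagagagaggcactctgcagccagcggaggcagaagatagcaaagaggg
Ppargc1a: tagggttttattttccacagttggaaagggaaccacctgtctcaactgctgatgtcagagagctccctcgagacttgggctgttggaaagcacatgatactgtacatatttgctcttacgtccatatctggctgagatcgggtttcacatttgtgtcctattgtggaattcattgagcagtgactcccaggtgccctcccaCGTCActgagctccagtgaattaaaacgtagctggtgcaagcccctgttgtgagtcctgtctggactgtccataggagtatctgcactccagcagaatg
Ckb: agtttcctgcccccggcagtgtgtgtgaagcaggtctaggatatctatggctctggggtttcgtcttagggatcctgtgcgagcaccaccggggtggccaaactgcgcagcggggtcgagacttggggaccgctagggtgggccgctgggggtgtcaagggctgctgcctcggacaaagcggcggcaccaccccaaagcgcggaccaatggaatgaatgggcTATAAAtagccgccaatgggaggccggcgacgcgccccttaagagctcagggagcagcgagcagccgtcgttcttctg
Windows were found for 7 of the 10 genes. Dio2 held the full element at position -95 (counted from the annotated RefSeq start) and a TATA box at -30. Its window lies wholly outside the gene coordinates given above, which end at 90738438. The 2 annotations place the Dio2 start differently, and these positions hold for the RefSeq start only. The full element, which also contains the core on both strands, occurs in 1.79% of all 32851 windows of this length. Ucp1 held the core at -147, and Ppargc1a held it on the opposite strand at -49; 20.8% of all windows hold it. Ckb held a TATA box at -28, as 13.6% of all windows do. The palindromic oestrogen response element, also searched on both strands, was in none of the 7 windows and in 0.07001% of all. A match describes the letters only.

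Cidea and the 2 respiratory chain subunits of heat-making fat were present at a few CPM. Cidea (ENSMUSG00000024526.8, chromosome 18, 67343604 to 67367785), a lipid droplet protein of brown fat, was at 4.16, 5.40, 5.79 and 6.97 CPM in control replicates 1 to 4 and 3.63, 1.598, 4.99 and 4.23 CPM in knockout replicates 1 to 4, from 4 to 13 counts. The control libraries lay higher on average, but knockout replicates 3 and 4 lay above control replicate 1. The means were 5.58 ± 1.16 and 3.61 ± 1.45 CPM (SD, n = 4), a log2 fold change of -0.59 (SE 0.43, edgeR adjusted p = 0.910). The 95% interval of the fold ran from 0.351 to 1.26.

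Cox7a1 and Cox8b encode forms of cytochrome c oxidase subunits that are made in brown fat and striated muscle, in place of the forms that most cells make from Cox7a2 and Cox8a. Cox7a1 (ENSMUSG00000074218.3, chromosome 7, 30184144 to 30186078) had 1, 7, 6 and 7 counts in control libraries and 4, 7, 10 and 6 in knockout libraries, or 2.59 ± 1.69 and 2.60 ± 0.933 CPM (n = 4, SD; exact permutation p = 1). Cox8b (ENSMUSG00000025488.9, chromosome 7, 140898945 to 140900446) had 7, 8, 7 and 4 counts in control libraries and 5, 3, 12 and 19 in knockout libraries, or 2.85 ± 0.436 and 3.56 ± 2.25 CPM (n = 4, SD; exact permutation p = 0.6). Knockout replicate 4 held the most Cox8b and knockout replicate 2 the least. Without knockout replicate 4 the Cox8b difference turned from 0.713 to -0.158 CPM. Because striated muscle also makes both subunits, muscle markers were read beside them. The summed level of 17 skeletal muscle markers was 84.6, 89.7, 86.3 and 62.1 in control libraries and 93.9, 138, 88.2 and 152 CPM in knockout libraries, led by Myl1 and Acta1. Of the 17, 15 were higher on average in the knockout and none was at 0 throughout. However, 15 of the 17 fell under the low-count filter, so most of these averages rest on few counts. The 2 tested were Myl1 and Acta1. Myl1, the most abundant, averaged 53.0 CPM in control and 57.6 CPM in knockout libraries. Acta1 averaged 15.2 and 26.9 CPM (log2 fold change 0.79, edgeR adjusted p = 0.709), with knockout replicate 3 inside the control range. Myh4, a muscle marker under the filter, was at 13.2 and 12.3 CPM in knockout replicates 2 and 4. It was at 0 in knockout replicates 1 and 3 and at 0 to 3.12 CPM in control libraries. Of the libraries with the highest muscle sums, knockout replicate 4 also had the most Cox8b and knockout replicate 2 the least. The part of muscle RNA in the Cox8b counts was not tested.

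The balance of tissue-restricted to general subunit did not differ detectably between the genotypes. The log2 ratio of Cox7a1 to Cox7a2 counts (0.5 added to each) was -8.37, -5.65, -5.93 and -4.92 in control libraries and -6.18, -5.53, -5.46 and -6.26 in knockout libraries. Its mean difference, knockout minus control, was 0.36 (exact permutation p = 0.857, adjusted p = 0.886 over 2 ratios, n = 4). Control replicate 1, with 1 count of Cox7a1, set the width of the control range, and without it the difference was -0.36. The log2 ratio of Cox8b to Cox8a counts averaged -7.32 ± 0.37 in control libraries and -7.22 ± 0.93 in knockout libraries (n = 4, SD; exact permutation p = 0.886, adjusted p = 0.886). The general subunit gene Cox7a2 was at 162 ± 14.8 and 156 ± 17.1 CPM, and Cox8a at 492 ± 82.4 and 479 ± 51.1 CPM in control and knockout libraries (SD, n = 4).

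The transcriptional regulators were detected in all 8 libraries. Prdm16 (ENSMUSG00000039410.16, chromosome 4, 154316125 to 154636873), the zinc-finger factor that commits cells to the brown and beige programme, was at 10.4, 13.7, 12.5 and 13.3 CPM in control replicates 1 to 4 and 8.17, 12.4, 16.9 and 9.75 CPM in knockout replicates 1 to 4. The knockout libraries held both the highest and the lowest value. The log2 fold change was -0.07 (SE 0.28, edgeR adjusted p = 0.985), and the 95% interval of the fold was 0.629 to 1.44. Its sign turned without knockout replicate 1 (0.06) or knockout replicate 4 (0.02).

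Ppargc1a (ENSMUSG00000029167.13, chromosome 5, 51454250 to 51567726), the cold-inducible coactivator of mitochondrial genes, was at 13.5, 19.8, 10.2 and 34.2 CPM in control replicates 1 to 4. The knockout libraries lay inside that range, at 13.2, 14.3, 19.1 and 11.0004 CPM for replicates 1 to 4. The log2 fold change was -0.40 (SE 0.34, edgeR adjusted p = 0.922; interval of the fold 0.460 to 1.26). Control replicate 4, the smallest library, held the highest value, and without it the log2 fold change was -0.01. Other omissions made the log2 fold change larger in size, to -0.60 without control replicate 3 and -0.57 without knockout replicate 3. Ppargc1a did not pass the threshold in any fit with 1 library left out. In limma-voom with library weights the log2 fold change was -0.12.

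Ppargc1b (ENSMUSG00000033871.14, chromosome 18, 61298136 to 61400431), the related coactivator, was nearly even across the control libraries, at 19.8, 19.5, 20.5 and 21.5 CPM. The knockout libraries spread more widely, at 16.3, 22.8, 13.1 and 10.4 CPM: 3 of the 4 lay below every control library and replicate 2 above them all. The log2 fold change was -0.38 (SE 0.24, edgeR adjusted p = 0.907; interval of the fold 0.535 to 1.10). Without knockout replicate 2 it was -0.62, with an unadjusted p of 0.0213 and an adjusted p of 0.837, which still missed the threshold.

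Ckb (ENSMUSG00000001270.9, chromosome 12, 111669361 to 111672338) encodes creatine kinase B, an enzyme of the creatine cycle that makes heat without Ucp1, and it is also made in brain, smooth muscle and many epithelia. Ckb was at 124, 199, 184 and 254 CPM in control replicates 1 to 4 and 90.3, 164, 198 and 115 CPM in knockout replicates 1 to 4. The extremes belonged to control replicate 4 and knockout replicate 1, and the other 6 libraries overlapped. The means were 190.2 ± 53.6 and 142 ± 48.2 CPM (SD, n = 4), a log2 fold change of -0.41 (SE 0.28, edgeR adjusted p = 0.910; interval of the fold 0.482 to 1.17). Without control replicate 4 or without knockout replicate 1 the log2 fold change was -0.25 in each case. Other omissions made it larger in size, to -0.58 without control replicate 1 and -0.62 without knockout replicate 3. The unadjusted edgeR p was 0.0447 and 0.0441 in those fits, with an adjusted p of 0.814 and 0.802. Ckb did not pass the threshold in any fit with 1 library left out. Of the 3030 words of 31 bases in its annotated transcripts, 504 are shared with the pseudogene Gm12892, which held at most 1.26 counts in a library.

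The spread of Ckb among libraries followed that of other genes. Over the 8 libraries, the genes whose log2 CPM was most like that of Ckb among 12479 others were Ptgds, Ggt1 and Ank3, with Pearson correlations of 0.994, 0.992 and 0.992. Ptgds encodes a prostaglandin D synthase, Ggt1 a glutathione-splitting enzyme of epithelial surfaces and Ank3 an ankyrin that anchors membrane proteins. Ptgds was at 28.8, 58.1, 55.2 and 98.9 in control libraries and 17.7, 45.1, 68.3 and 28.9 CPM in knockout libraries, with the same highest and lowest library as Ckb. These correlations describe the 8 libraries, which all share the 2 genotypes and a single tissue, and 169 genes had a correlation above 0.9.

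Epithelial genes, listed after these values had been seen and therefore not tested as a list, had a similar spread. The summed level of 15 epithelial genes, among them Epcam, Krt8 and Spint2, was 140.1, 343, 305 and 631 CPM in control replicates 1 to 4 and 136, 289.7, 451 and 173 CPM in knockout replicates 1 to 4. Ordered by this sum or by Ckb, no library moved by more than 1 place, with control replicate 4 first and knockout replicate 1 last in both orders. Of the 15 genes, 11 passed the low-count filter, 10 were highest in control replicate 4, 5 were lowest in knockout replicate 1 and none was at 0 in all libraries. The share of all genes highest in control replicate 4, the smallest library, is not given here. Among them Krt8 went from 21.8 CPM in knockout replicate 1 to 158 CPM in control replicate 4. A list of 14 genes of multiciliated cells, of which 13 were in the table, summed to 83.5 to 439 in control libraries and 62.0 to 266 CPM in knockout libraries. Of the 13, 11 were highest in control replicate 4 and 3 were lowest in knockout replicate 1. The 7 mesothelial markers, which share Krt8, Krt18 and Krt19 with the epithelial list, summed to 110.3, 225, 199 and 362 CPM in control replicates 1 to 4 and 123, 165, 225 and 189 CPM in knockout replicates 1 to 4, also highest in control replicate 4. Within that list Wt1 was highest in control replicate 4 (21.5 CPM), while Msln and Upk3b were higher in control replicate 2 (12.5 and 44.8 CPM) than in control replicate 4 (5.07 and 33.6 CPM). The 11 epididymal secretory genes on the fixed list for the neighbouring organ were nearly absent, with 5 at 0 in every library and a sum of 0 to 8.83 CPM. Secretory genes outside that list, Ptgds among them, are not covered by this sum. That list holds secretory genes only, other epithelia of the male tract were not examined, and the source of the epithelial and ciliated cell RNA was not tested. With the log2 epithelial sum as a covariate beside genotype, chosen after the data had been seen, the log2 fold change of Ckb went from -0.41 to -0.22 (edgeR adjusted p = 0.689), that of Ppargc1a from -0.40 to -0.17 (adjusted p = 0.940) and that of Prdm16 from -0.07 to 0.03 (adjusted p = 0.992). Cidea and Ppargc1b moved less, to -0.50 and -0.36. The unadjusted edgeR p of Ckb went from 0.176 to 0.0600 in that fit. Because the list was drawn up after the Ckb values were seen, and its sum follows Ckb, the smaller Ckb fold change cannot show a source. Prdm16 and Ppargc1a themselves followed Ckb across the libraries, with Pearson correlations of log2 CPM of 0.879 and 0.691. Their changes under this covariate therefore cannot show a source either. The part of epithelial RNA in the Ckb counts was not tested.

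**Figure D2:**
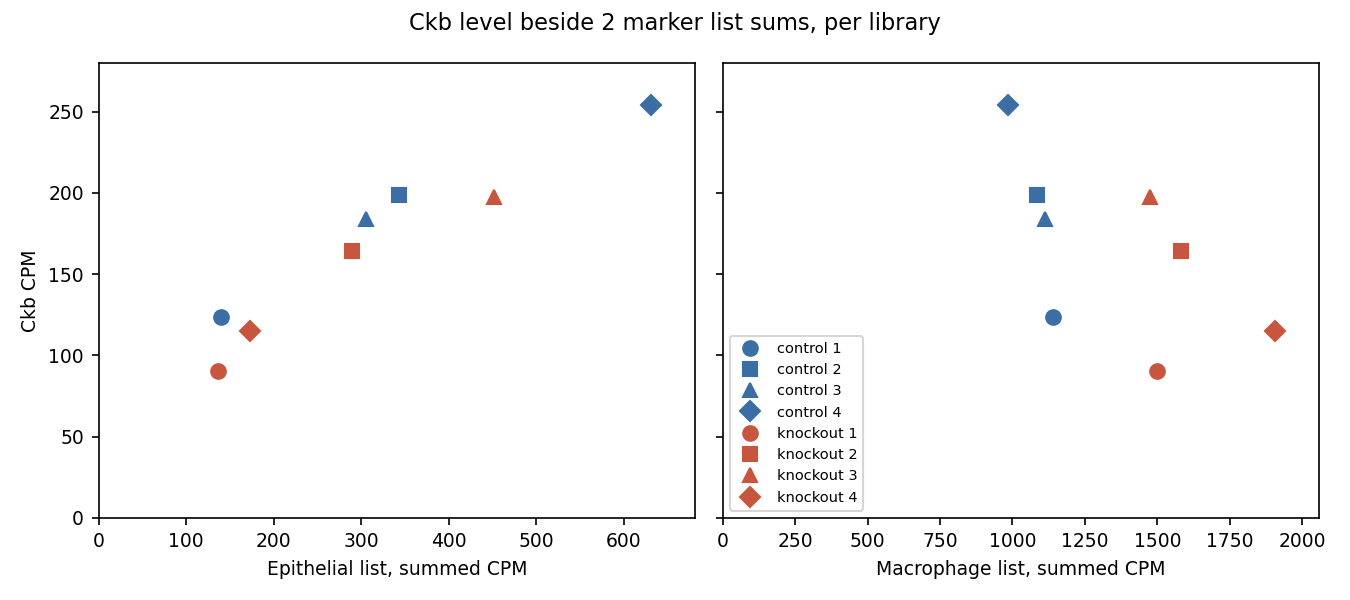
Level of Ckb in CPM (vertical axes) against the summed CPM of the epithelial list (left) and of the macrophage list (right), for each control library (blue) and knockout library (red). Ckb runs from 90.3 to 254 CPM along with the epithelial sum in both genotypes, while the macrophage sum splits the genotypes and leaves Ckb overlapping.

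The rest of the thermogenic pathway was read from 5 lists of 93 genes in all, of which 72 could be tested. A single gene passed an adjusted p of 0.05, Fndc5, and it was lower in knockout libraries. At an unadjusted p under 0.05 there were 2 genes higher and 6 lower, against 3.52% and 2.87% of all tested genes. The median log2 fold change over the 72 genes was -0.09, with 24 above and 48 below 0.

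The adrenergic input showed no difference past the test. Of 16 genes of receptors, G protein, adenylyl cyclases, protein kinase A and the steps after it, 15 were tested, 0 had an adjusted or unadjusted p under 0.05, and the median log2 fold change was -0.02. Adrb3, the beta3-adrenergic receptor of adipocytes, was at 391 ± 136 in control libraries and 389.8 ± 131 CPM in knockout libraries (SD, n = 4), with an interval of the fold from 0.624 to 1.59. The 2 with the smallest p were the adenylyl cyclase gene Adcy6 and the kinase gene Prkacb, with log2 fold changes of -0.16 and -0.12 (edgeR adjusted p = 0.924 and 0.939).

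Among 23 tested transcription factors and cofactors, 0 had an adjusted or unadjusted p under 0.05, with a median log2 fold change of -0.07 and 16 of 23 below 0. Pparg, the master regulator of fat cell formation, was at 224 ± 26.8 in control libraries and 190.4 ± 8.14 CPM in knockout libraries (SD, n = 4), with a log2 fold change of -0.23 and an edgeR adjusted p of 0.802. Cebpa, its partner, was at 407 ± 40.4 and 340.1 ± 59.8 CPM (SD, n = 4), with a log2 fold change of -0.26 and an edgeR adjusted p of 0.816. Ebf2, which opens brown fat enhancers for Pparg, was at 57.2 ± 5.71 and 60.9 ± 22.9 CPM (SD, n = 4).

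Of 22 other brown and beige markers, 11 fell under the low-count filter, among them Zic1, Lhx8, Tbx1, Tmem26, Cited1 and Otop1. Of the 11 tested, 0 passed and the median log2 fold change was -0.10. Slc36a2, an amino acid transporter of adipocyte membranes, was the only member of the list with an unadjusted p under 0.05, against 6.39% of all tested genes. It was at 69.3, 66.7, 70.2 and 64.5 in control libraries and 49.8, 37.0, 33.3 and 59.2 CPM in knockout libraries. Each knockout library lay below every control library, with a log2 fold change of -0.59 and a standard error of 0.17, but the adjusted p of 0.402 in edgeR missed the threshold.

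Of the genes of heat-making cycles that do not need Ucp1, 15 of 18 were tested and 0 passed, with a median log2 fold change of -0.15. Beside 2.87% of all tested genes, 3 genes of this list were lower at an unadjusted p under 0.05, and 0 were higher. They were Dgat1, which closes the triglyceride cycle (-0.35, edgeR adjusted p = 0.695), the calcium pump gene Atp2a2 (-0.29, adjusted p = 0.713) and the glycerol phosphate dehydrogenase gene Gpd1 (-0.51, adjusted p = 0.775). Genes that supply or use creatine were read beside Ckb. Gatm, which makes the creatine precursor, was at 15.9 ± 5.10 and 18.1 ± 3.82 CPM in control and knockout libraries, and Gamt, which completes creatine, at 49.4 ± 12.7 and 44.1 ± 8.45 CPM (SD, n = 4). The creatine transporter gene Slc6a8 was at 34.5 ± 4.58 and 37.2 ± 5.92 CPM, and the phosphatase gene Alpl at 8.02 ± 1.57 and 10.8 ± 3.13 CPM (SD, n = 4), and none of the 4 had an unadjusted p under 0.05.

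Secreted factors of fat gave the only call. Fndc5, which encodes the membrane precursor of irisin, was at 89.9, 57.3, 93.6 and 66.6 in control libraries and 35.9, 32.4, 36.9 and 29.0 CPM in knockout libraries. All 4 knockout libraries lay below all 4 control libraries, and the log2 fold change was -1.20 (SE 0.17, edgeR adjusted p = 0.00776). An annotated Fndc5 transcript holds a run of 31 A, to which an oligo-dT primer can bind, and the longest such run among the 10 thermogenic genes was 16, in Prdm16. Among the other listed genes, Pecam1 holds a longer run of 43 A, and Nrf1, Lipe and Car3 hold shorter runs of 28 each. None of these 4 genes passed the test, which cannot show how Fndc5 was primed. The part of such priming in the Fndc5 counts was not tested. Of the other 7 tested factors, 3 had an unadjusted p under 0.05, against 6.39% of all tested genes. Adm, a vasodilating peptide, had a log2 fold change of 0.82 (edgeR adjusted p = 0.514). Metrnl, a cytokine linked to beige fat, had 0.72 (adjusted p = 0.689), and the angiogenic factor Vegfa had -0.44 (adjusted p = 0.619).

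**Figure D3:**
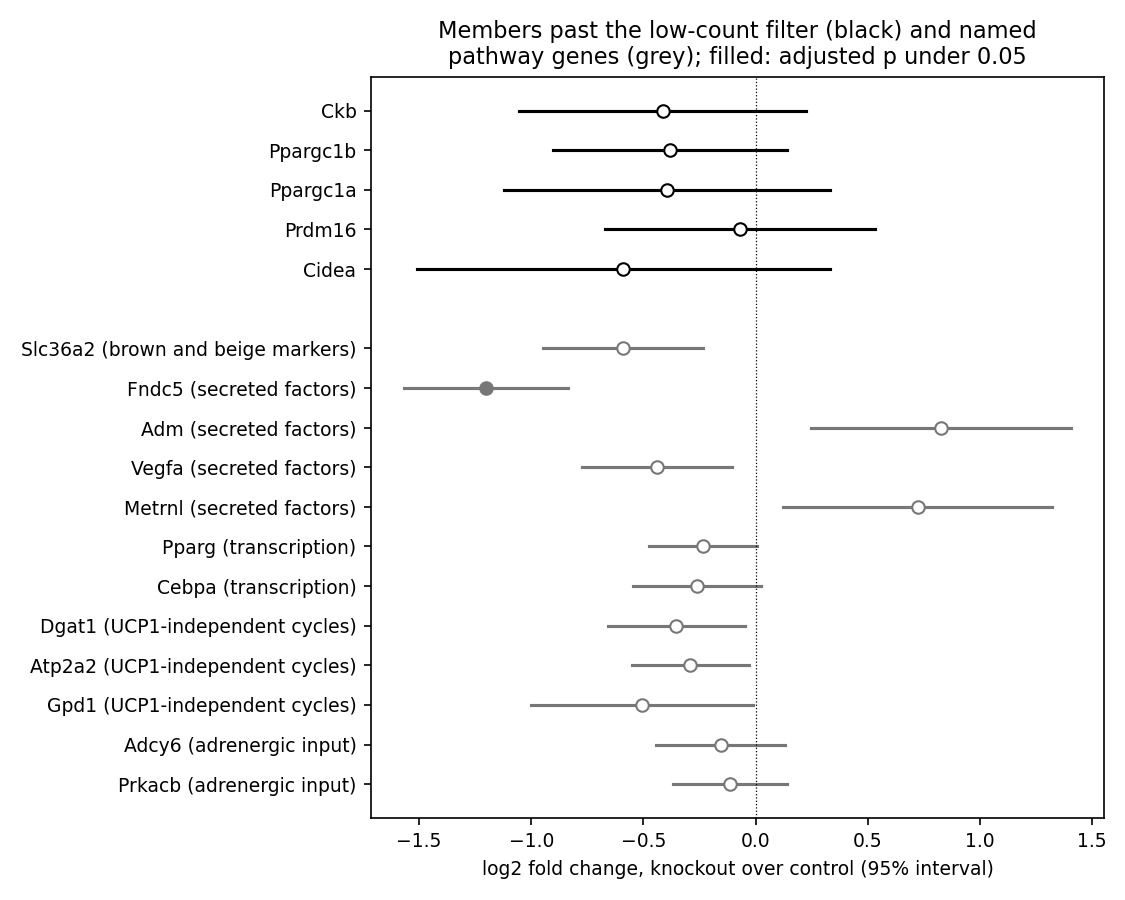
Log2 fold change, knockout over control, with its 95% interval (horizontal axis) for the 5 thermogenic genes past the low-count filter (black) and the named pathway genes (grey); a filled point has an adjusted p under 0.05. The intervals of all 5 black genes include 0, and Fndc5, at -1.20, is the only filled point.

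**Figure D4:**
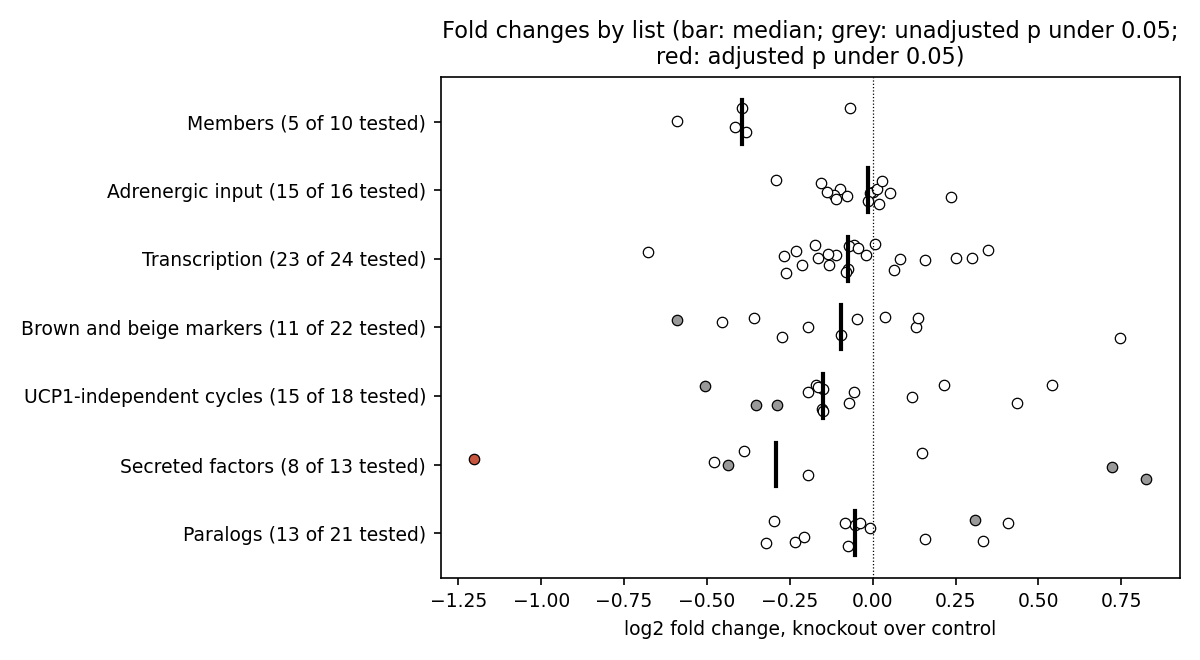
Log2 fold change, knockout over control (horizontal axis), of each tested gene in the 10-gene set (top row, called members), the 5 pathway lists and the paralog list. Bars give medians, grey points have an unadjusted p under 0.05, and the red point, Fndc5 at -1.20, is the only gene with an adjusted p under 0.05.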

How the data were processed

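RNA from 4 control and 4 knockout samples was made into 3′-end libraries by BRB-seq, per the labels' protocols. The deposited table gives an estimated count for each gene and library, not scaled between libraries; Salmon and GRCm38 are named in the submitters' processing notes, and the annotation release, the strand setting and any handling of molecular identifiers are not given in the sources used here. Without a stated strand, reads of Cidea, Ppargc1a, Ppargc1b, Dio2, Elovl3 and Prdm16 cannot be told apart from those of genes annotated on the opposite strand there, and Ppargc1a and Ppargc1b also overlap genes on their own strand. Of 34866 identifiers, 34582 matched GENCODE release M21 without their version; names and gene coordinates are from that annotation, and promoter windows from RefSeq.

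Estimated counts were rounded and fitted with edgeR 4.0.16 in R 4.3.3 (TMM factors, filterByExpr, robust quasi-likelihood F test, genotype as the only term), on 12480 genes, with Benjamini-Hochberg adjustment over all of them and a threshold of 0.05. Standard errors are the log2 fold change over the square root of F. For genes under the filter and for count ratios, scipy 1.17.1 gave exact permutation p-values (two-sided). Alternatives tried were upper-quartile or RLE factors, all genes unfiltered, DESeq2 1.42.0, limma-voom (limma 3.58.1) with quality weights, a replicate block, leaving out each library, and, added after seeing the data, an epithelial covariate. Chi-square per degree of freedom between replicates was 4.48 to 9.40, so no pair agreed within sampling noise and none was merged; this does not show that the libraries are separate animals. Pathway genes are named where the unadjusted p was under 0.05, or else the 2 with the smallest p in a list; like genes are the 3 with the highest Pearson correlation, for members of at least 20 CPM. Adrb3, Ebf2, Gatm, Gamt, Slc6a8, Alpl, Wt1, Msln, Upk3b, the genes with long A runs and the sparse brown and beige markers were named after their values were seen. The members and lists were chosen with earlier results of these data known.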

Additional observations from a re-analysis of the deposited data

Results flagged for a closer look

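In groups of 4 libraries, 3 of 37 sets of values held 1 library far from the rest by Dixon's criterion at the 95% level. For continuous values chance gives about 1 in 20, or 1.9. A set with a single library above 0 is always flagged, as for Ucp1 and Elovl3 below, so the 3 flags cannot be set against that rate. Control replicate 3 had Ucp1 at 0.445 CPM (1 count) and the other controls had 0. Elovl3 was at 1.361 CPM in knockout replicate 1, which is 3 counts, against 0 in the other knockout libraries. The log2 ratio of Cox8b to Cox8a was -7.867 in control replicate 1, whereas the other controls ran from -7.173 to -7.063, and without it the genotype difference of that ratio went from 0.10 to -0.08.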

How the results depend on the processing

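No member passed an adjusted p of 0.05 under any of the 15 alternative fits, in which their adjusted p ran from 0.689 to 0.9999. The sign of Cidea, Ppargc1a, Ppargc1b and Ckb was kept in all of them. Prdm16 lay between -0.293 and 0.0644 with 1 library omitted and was 0.0263 with the epithelial covariate, which also turned Cideb to 0.0856 and Elovl7 to 0.285. With the replicate number as a block the log2 fold change of Ckb was -0.437 with an unadjusted p of 0.0422 and an adjusted p of 0.858, and the block changed no member's call. Deviations of same-numbered libraries correlated at 0.25, -0.06, -0.01 and -0.24. The labels do not say whether the numbers pair the libraries, and these values cannot settle it. Over all genes, 21 passed; 58 passed without the low-count filter, 55 with DESeq2, 6 with the replicate block, 41 with the epithelial covariate and 4 to 43 when 1 library was left out (4 without control replicate 2, 43 without control replicate 4). A single pathway gene passed in every one of these fits. The CPM differences of members under the filter changed sign when 1 library was left out, from -0.00290 to 0.308 for Ucp1, -0.664 to 0.359 for Dio2, -0.737 to 0.626 for Cox7a1 and -0.158 to 1.501 for Cox8b; the log2 ratio differences ranged from -0.358 to 0.793 for Cox7a1 and -0.248 to 0.437 for Cox8b. Among paralogs the log2 fold changes that turned ranged from -0.718 to 0.148 for Cideb, -0.115 to 0.111 for Cidec, -0.121 to 0.0026 for Cox7a2, -0.114 to 0.0790 for Cox8a, -0.209 to 0.0534 for Elovl1, -0.213 to 0.0299 for Elovl5 and -0.738 to 0.388 for Elovl7. The causes were not tested. With more than 3 counts the rule for detection gave 7 members, with any count above 0 it gave 8, and with at least 10 counts it gave 5. Counts of 0 to 19 per library limit what can be said of the 5 members under the filter.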

Other observations

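Relatives of the thermogenic genes did not pass the test either. Of 21 listed paralogs 13 were tested, with a median log2 fold change of -0.05. In edgeR 0 had an adjusted p under 0.05. Against 6.39% of all tested genes, 1 paralog had an unadjusted p under 0.05. That gene was Ucp2, an uncoupling protein relative made in many cells including macrophages. It was at 152, 143, 164 and 158 CPM in the control and 176, 232, 153 and 201 CPM in the knockout libraries. Knockout replicate 3 lay inside the control range and the other 3 knockout libraries above it (log2 fold change 0.31, edgeR adjusted p = 0.722). Ucp3, the form of muscle and brown fat, was at 6.44 ± 0.530 and 8.55 ± 3.09 CPM (SD, n = 4). Cidec, the lipid droplet protein of white adipocytes, was at 1597 ± 306 and 1586 ± 361 CPM, and Cideb, its liver relative, at 13.4 ± 8.07 and 10.5 ± 5.97 CPM (SD, n = 4).

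Pprc1, the third coactivator of the Ppargc1a family, was at 9.57 ± 4.13 and 11.7 ± 2.96 CPM, and Mecom, the closest relative of Prdm16, at 18.2 ± 3.39 and 20.3 ± 2.68 CPM (SD, n = 4). Cox7a2l, a factor of respiratory supercomplex assembly, had a log2 fold change of -0.24 (edgeR adjusted p = 0.813). Among the elongases, Elovl6, the lipogenic form, was at 62.8 ± 21.3 and 48.9 ± 29.7 CPM, Elovl5 at 85.5 ± 3.42 and 80.7 ± 16.8 CPM, Elovl1 at 57.0 ± 13.3 and 53.9 ± 6.29 CPM and Elovl7 at 7.29 ± 5.46 and 5.95 ± 4.71 CPM (SD, n = 4). The muscle and mitochondrial creatine kinase genes Ckm, Ckmt1 and Ckmt2 fell under the low-count filter, as did the deiodinase genes Dio1 and Dio3.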
